A study of Mus musculus with 8 samples.

Results

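The levels of 10 immediate early and acute stress genes were examined in the adult mouse retina. The genes were Fos, Fosb, Junb, Egr1, Arc, Npas4, Nr4a1, Ier2, Dusp1 and Atf3, and they were taken by name from a table of 18058 genes. All 10 were found, and all 10 had a mean of at least 10 normalized counts over the 8 libraries, which was the minimum for a test. The total RNA libraries came from 4 samples of wildtype (WT) retina and 4 samples of retina with a Bcan, Ncan, Tnc and Tnr (quadruple) knockout (KO), each set named A to D. Bcan and Ncan encode the chondroitin sulfate proteoglycans brevican and neurocan, and Tnc and Tnr encode the glycoproteins tenascin-C and tenascin-R of the extracellular matrix. The study's methods name the inbred strain 129S2/SvPasCrl as WT, and the quadruple KO arose by crossing lines that each lacked 1 gene, so that all cells carry the deletions throughout life. The labels name no treatment of either group. The methods describe retinae that were pooled and snap frozen before RNA extraction. They also state that adult mice of both sexes were used and that the animals lived under a controlled light-dark cycle. The number, sex and exact age of the mice behind each single library, and the hour and light state at dissection, are not given in the sources used here. The p-values below therefore measure the spread between these libraries.

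Immediate early genes are transcribed within minutes of a stimulus from factors that the cell already holds, without new protein synthesis. In neurons, calcium entry and the MAP kinase cascade activate CREB and the serum response factor with its partners, which bind the promoters of these genes. Their mRNAs are short-lived, and the same genes respond to light, to injury and to the stress of tissue removal. Fos, Fosb and Junb encode subunits of the dimeric transcription factor AP-1. Egr1, Nr4a1 and Npas4 encode a zinc finger factor, an orphan nuclear receptor and a neuron-specific factor that responds to calcium. Arc encodes a protein of excitatory synapses that takes part in the removal of AMPA receptors. Dusp1 encodes a phosphatase that inactivates MAP kinases, Ier2 a short nuclear protein, and Atf3 a stress-induced factor of the ATF/CREB family.

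Sequences are shown for the 3 genes of which every KO library lay below every WT library, a separation found in 3.58% of all genes tested. Each is the stretch of 250 bases before the start of the Ensembl canonical transcript in GENCODE on GRCm39, printed 5' to 3' on the strand of the gene. Fos is from chr12:85520408-85520657 on the plus strand, Fosb from chr7:19043977-19044226 on the minus strand and Dusp1 from chr17:26727494-26727743 on the minus strand. Capitals mark TGACGT, the core of the cAMP response element bound by CREB and ATF factors, with the full element TGACGTCA where present, and GCGNGGGCG, the site bound by EGR factors.
Fos: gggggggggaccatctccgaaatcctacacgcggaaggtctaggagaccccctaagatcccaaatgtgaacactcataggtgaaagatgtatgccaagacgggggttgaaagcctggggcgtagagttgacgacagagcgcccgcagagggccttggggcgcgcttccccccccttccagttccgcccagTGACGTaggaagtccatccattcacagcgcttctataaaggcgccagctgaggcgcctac
Fosb: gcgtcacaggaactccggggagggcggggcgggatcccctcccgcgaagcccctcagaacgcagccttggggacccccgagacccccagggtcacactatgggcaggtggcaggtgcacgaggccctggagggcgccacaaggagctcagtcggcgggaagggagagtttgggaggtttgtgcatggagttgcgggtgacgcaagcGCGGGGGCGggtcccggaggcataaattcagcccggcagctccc
Dusp1: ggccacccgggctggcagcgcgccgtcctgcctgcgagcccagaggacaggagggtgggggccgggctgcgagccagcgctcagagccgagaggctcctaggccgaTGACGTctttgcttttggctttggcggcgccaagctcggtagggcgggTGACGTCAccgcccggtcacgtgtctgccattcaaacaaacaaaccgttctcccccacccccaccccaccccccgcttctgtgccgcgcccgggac
The core TGACGT stood 60 bases before the start in Fos, while Dusp1 held a core 144 bases and a full element 96 bases before the start. Both strands were searched, and each TGACGTCA also counts as TGACGT. Of the 10 genes, 3 held the core (Fos, Ier2 and Dusp1), against 6.49% of the same windows of 21757 protein-coding genes. The full element was found in Ier2 and Dusp1, so in 2 of the 10 genes, against 1.7% of the windows. The EGR site was found in Fosb, 44 bases before the start, and in Arc, so in 2 of the 10, against 4.48% of the windows. The AP-1 site TGANTCA was found in 0 of the 10 and in 6.18% of the windows, and the CArG box bound by the serum response factor in 0 of the 10 and in 1.4%. The letters TATAAA were found in Fos, Junb and Nr4a1 and in 11.9% of the windows. These matches describe the letters in a window and say nothing about binding in the retina. Sites outside the 250 bases, or with other letters, were not searched, so a site not found here may exist elsewhere.

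All 10 genes had a lower mean log2 level in the KO than in the WT retina, and none of them passed the test. The median of their log2 fold changes was -0.65, and that of all 17636 genes tested was -0.00018. A lower value of any size was found in 50% of all genes tested. The fit was limma on log2(normalized count + 1), where a gene is called at an adjusted p under 0.05 over all genes tested. Of the 10 genes, 0 were called lower or higher, while 0.176% of all genes were called lower and 0.261% higher. At an unadjusted limma p under 0.05, 6 of the 10 genes were lower in the KO (Fos, Fosb, Junb, Npas4, Nr4a1 and Dusp1), as were 7.28% of all genes. Every KO library was below every WT library in 3 of the 10 genes and in 3.58% of all genes. In a bulk sample, fewer cells that express a gene and less RNA per cell cannot be told apart. The plot of normalized counts by library shows these values.

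**Figure D1:**
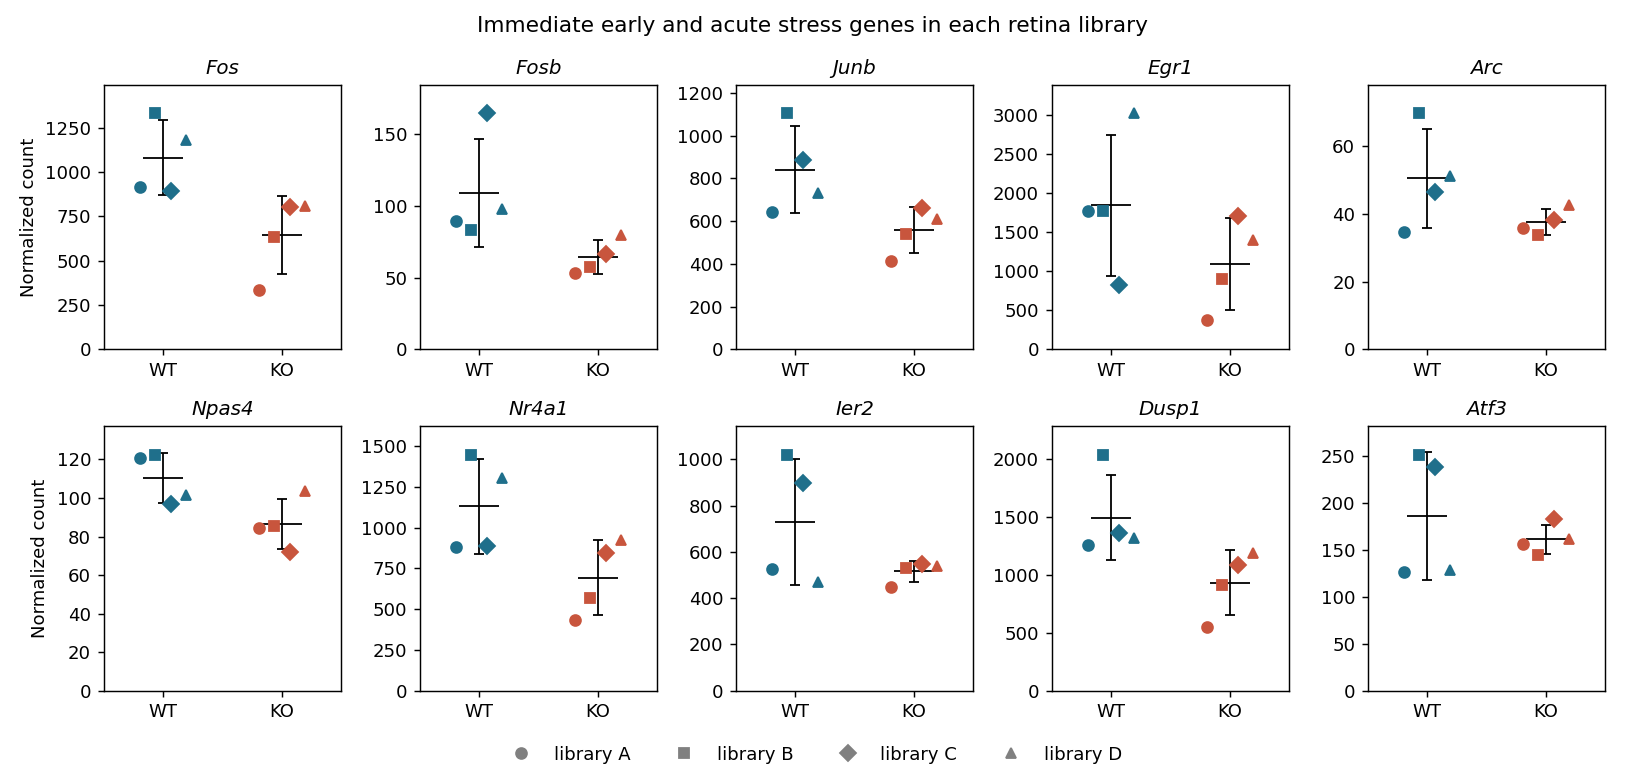
Normalized count (vertical axis, from 0) of each of the 10 genes in the 4 WT libraries (blue) and the 4 KO libraries (red), where the marker shape gives the library letter and the black bar and whiskers give the mean and SD of each genotype. The genotypes do not overlap for Fos, Fosb and Dusp1, and KO A is the lowest of the 8 libraries in 7 genes.

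Of the AP-1 subunits, Fos (GRCm39, chr12:85520658-85524047) had normalized counts of 918, 1332, 895 and 1182 in WT A to WT D. In KO A to KO D it had 337, 637, 805 and 809. The genotypes did not overlap, although the lowest WT library and the highest KO libraries were close to each other, and KO A stood well below the other 3 KO libraries. The mean was 1082 ± 212 (SD, n = 4) in WT and 647 ± 221 (SD, n = 4) in the KO, which is 59.8% of WT. The log2 fold change was -0.80 (SE 0.27, 95% interval -1.41 to -0.19), with an adjusted p of 0.301 in limma. A two-sided exact permutation test of the mean counts gave p = 0.0286, the smallest that 4 against 4 libraries can give. Without KO A the log2 fold change of Fos was -0.52 (95% interval -0.90 to -0.13), and without KO D it was -0.94.

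Fosb (chr7:19036621-19043976) had 89.4, 83.3, 164 and 97.7 normalized counts in WT A to WT D and 53.4, 57.4, 66.7 and 79.8 in KO A to KO D. WT C was far above the other WT libraries, and the highest KO library was just below the lowest WT library. The KO mean was 59.2% of WT, with a log2 fold change of -0.71 (SE 0.23, 95% interval -1.23 to -0.18) and an adjusted p of 0.301 in limma. The exact permutation test gave p = 0.0286. Without WT C the log2 fold change was -0.49 and without WT B -0.82.

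Junb (chr8:85701113-85705359, a gene of 1 exon) had 645, 1105, 886 and 731 normalized counts in WT A to WT D and 415, 541, 663 and 612 in KO A to KO D. The genotypes overlapped, because WT A was below KO C. The means were 842 ± 202 (SD, n = 4) in WT and 558 ± 107 (SD, n = 4) in the KO. In limma, the log2 fold change was -0.58 (SE 0.19, 95% interval -1.02 to -0.15), the adjusted p 0.301 and the exact permutation p 0.0571. With a correction for the GC content of the genes, the log2 fold change of Junb was -0.37, and with array weights, which give less weight to libraries of larger spread, it was -0.32.

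Among the other transcription factors, Egr1 was the most variable. It had 1773, 1776, 820 and 3025 normalized counts in WT A to WT D and 372, 901, 1707 and 1397 in KO A to KO D. The ranges of the genotypes overlapped widely: the highest WT library had 3.69 times the lowest, the highest KO library 4.59 times the lowest, and WT C was below 3 KO libraries. Its log2 fold change was -0.82 (SE 0.50, 95% interval -1.96 to 0.31), with an adjusted p of 0.361 in limma and an exact permutation p of 0.229. The estimate depended on single libraries. It was -0.37 without KO A and -0.54 without WT D, but -1.16 without WT C, -1.11 without KO C and -1.01 without KO D.

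Nr4a1 (chr15:101151980-101172681) had 884, 1448, 886 and 1302 normalized counts in WT A to WT D and 435, 567, 845 and 924 in KO A to KO D. WT A and WT C lay side by side below KO D, while WT B and WT D were above all KO libraries. Nr4a1 had a log2 fold change of -0.73 (SE 0.26, 95% interval -1.32 to -0.15), with an adjusted p of 0.301 in limma and an exact permutation p of 0.0857.

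Npas4 (chr19:5034382-5040344) had 121, 123, 96.8 and 101.4 normalized counts in WT A to WT D and 84.6, 85.5, 72.1 and 104 in KO A to KO D. It varied least of the 10 genes among the WT libraries, and only KO D reached into the WT range. The log2 fold change was -0.35 (SE 0.15, 95% interval -0.70 to -0.01), with an adjusted p of 0.301 in limma and an exact permutation p of 0.0857.

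Of the effectors, Dusp1 (chr17:26724564-26781102) had 1260, 2038, 1359 and 1320 normalized counts in WT A to WT D. In KO A to KO D it had 550, 909, 1081 and 1187. The genotypes did not overlap, with WT B far above the other WT libraries and KO A far below the other KO libraries. The means were 1494 ± 365 (SD, n = 4) in WT and 932 ± 279 (SD, n = 4) in the KO. For Dusp1 the log2 fold change was -0.71 (SE 0.24, 95% interval -1.26 to -0.16), the adjusted p 0.301 in limma and the exact permutation p 0.0286. Without KO A the log2 fold change was -0.48 and without KO D -0.85.

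Arc (chr15:74540932-74544419) had 34.6, 69.7, 46.5 and 51.2 normalized counts in WT A to WT D and 35.9, 33.7, 38.1 and 42.5 in KO A to KO D. WT B, WT C and WT D were above all KO libraries, and WT A was among them. The log2 fold change was -0.38 (SE 0.22, 95% interval -0.88 to 0.12), with an adjusted p of 0.347 in limma and an exact permutation p of 0.114. From the estimated value of 1 read, the lowest library held about 31.1 reads of Arc, which gives a counting error of about 17.9%. Without WT B the log2 fold change was -0.21 and without WT A -0.54. With array weights it was -0.08, and with the GC correction -0.24.

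Ier2 (chr8:85387960-85389483, 1 exon) had 524, 1021, 900 and 470 normalized counts in WT A to WT D and 448, 532, 546 and 538 in KO A to KO D. WT B and WT C were above all other libraries, while WT A and WT D lay among the KO libraries. Ier2 had a log2 fold change of -0.42 (SE 0.24, 95% interval -0.96 to 0.12), with an adjusted p of 0.337 in limma and an exact permutation p of 0.314. Without WT B it was -0.23, without WT D -0.61, with the GC correction -0.24, and with array weights -0.056. Without both WT B and WT C it was 0.052.

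Atf3 (chr1:190902493-190950241) had 126, 252, 239 and 128 normalized counts in WT A to WT D and 156, 145, 182 and 162 in KO A to KO D. As for Ier2, WT B and WT C were the highest of all 8 libraries, but here WT A and WT D were below every KO library. The log2 fold change was -0.14 (SE 0.24, 95% interval -0.68 to 0.41), with an adjusted p of 0.750 in limma and an exact permutation p of 0.457. Without WT B the log2 fold change was 0.033 and without WT C 0.0076. Without both it was 0.33 (95% interval 0.05 to 0.62).

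**Figure D2:**
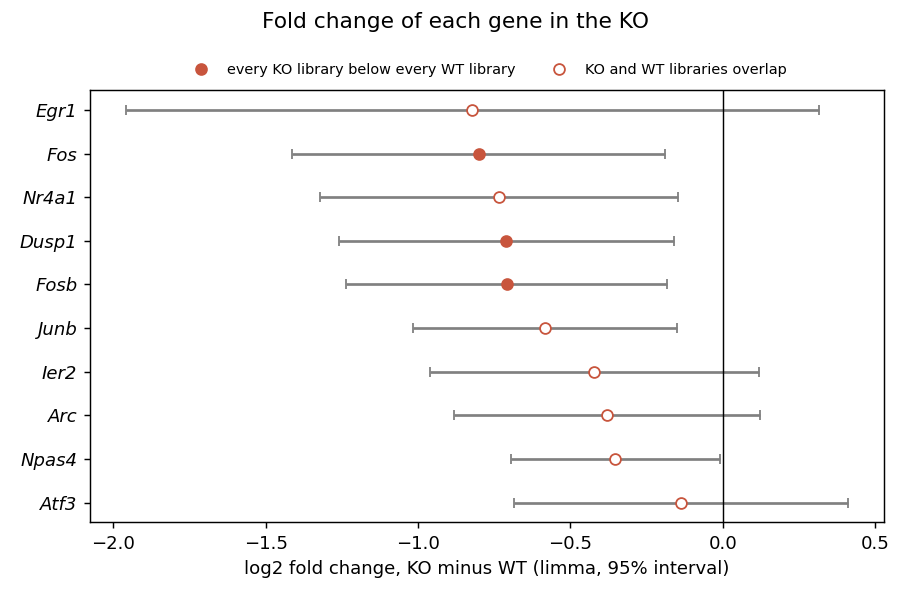
Log2 fold change of the KO against WT (horizontal axis, limma, with 95% interval) for each of the 10 genes, where filled points are genes whose 4 KO libraries were all below the 4 WT libraries. All estimates are below 0, from -0.82 for Egr1 to -0.14 for Atf3, and the intervals of Egr1, Ier2, Arc and Atf3 include 0.

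Per kilobase of the canonical transcript, the WT level was highest for Dusp1, with 751 normalized counts per kilobase. Fos (512), Ier2 (478), Junb (465), Nr4a1 (443) and Egr1 (411 normalized counts per kilobase) followed, and neighbours in this order overlapped over the WT libraries. Atf3 was lower, with 93.9 normalized counts per kilobase. Npas4 (30.5), Fosb (28.7) and Arc (16.5 normalized counts per kilobase) were the lowest, and neighbours among these overlapped too. The neighbours whose WT libraries did not overlap were Dusp1 and Fos, Egr1 and Atf3, and Atf3 and Npas4. Dusp1 and Fos only just missed an overlap. The lowest WT library had 633 normalized counts per kilobase for Dusp1, and the highest had 630 for Fos. In whole retina, Npas4, Fosb and Arc were thus at the low end of the 10 genes.

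Within the WT retina, the 10 genes did not move as 1 block. WT B was the highest WT library in 8 genes, with WT C highest for Fosb and WT D for Egr1, and in all 8 of those genes WT B was the highest of the 8 libraries, as it was in 20.9% of all genes tested. The median of the 10 genes' centred log2 levels, which is each gene's log2 level minus its own mean over the 8 libraries, was 0.70 in WT B. In WT A, WT C and WT D it was 0.09, 0.20 and 0.23. Fos and Nr4a1 were high in WT B and WT D, Ier2 and Atf3 in WT B and WT C, and Egr1 was highest in WT D and lowest in WT C. Junb followed WT B and then WT C, and Dusp1 stood out in WT B only.

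WT B and WT C also differed from the other libraries in other measures. Signal recognition particle RNA made up 19.3% of the WT B library and 14.8% of WT C by normalized counts, and 6.82% to 8.69% of each of the others. For mRNA of mitochondrial genes the shares were 0.402%, 0.341% and 1.28% to 1.64%. The summed level of 6 Mueller glia markers was 188162 and 181958 normalized counts, against 127201 to 143956. The summed level of fibroblast and sclera markers, of which 4 of 5 were in the table, was 562 and 407 normalized counts, against 177 to 335. The sum of lens markers was highest in WT B, with 1800 normalized counts, and in KO C, with 1610. The summed level of 6 rod markers was lower in both, at 1237000 and 1440000 normalized counts, against 1562000 to 1814000 in the others. Their estimated depth was 23700000 and 27200000 reads, against 35900000 to 52400000. Apart from these, WT D had the highest sum of pigment epithelium markers, of which 5 of 6 were in the table. The sum was 5991 normalized counts against 2039 to 3429 in the other libraries. The part of these differences in the levels of the 10 genes was not tested. Without both WT B and WT C, Egr1 (-1.29, 95% interval -2.48 to -0.10), Fos (-0.77), Nr4a1 (-0.69), Fosb (-0.55) and Dusp1 (-0.53) had a log2 fold change below -0.5, Junb had -0.32, Npas4 -0.36 and Arc -0.17, and 0 of the 10 genes were called in limma.

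Within the KO retina, KO A was the lowest library in 7 genes, and in all 7 it was the lowest of the 8 libraries, as it was in 7.9% of all genes tested. The exceptions were Arc and Atf3, lowest among the KO libraries in KO B, and Npas4, lowest in KO C. The median centred log2 level of the 10 genes was -0.65 in KO A, -0.34 in KO B, -0.05 in KO C and -0.004 in KO D. The highest KO library had 2.40 times the lowest for Fos, 2.16 times for Dusp1 and 2.13 times for Nr4a1, but 1.22 times for Ier2. KO A also had the lowest sum of 7 retinal ganglion cell markers, with 22054 normalized counts against 25386 to 29260 in the other libraries. Most of this sum was Nefl, with 12746 normalized counts in KO A. Of the 7 markers, Rbpms, Pou4f2, Nefl and Sncg were lowest of the 8 libraries in KO A, and Pou4f1, Nefm and Thy1 were not. The sums overlapped between the genotypes, with 22054 to 26454 normalized counts in the KO and 25588 to 29260 in WT. The part of this difference in the levels of the 10 genes was not tested.

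The spread between libraries of 1 genotype was compared with that of all genes as the SD of the log2 level. The SD was larger in WT than in the KO for 5 of the 10 genes (Fosb, Junb, Arc, Ier2 and Atf3), against 83.9% of all genes tested. The median SD over all genes tested was 0.26 in WT and 0.10 in the KO, while over the 10 genes it was 0.39 and 0.27. In the KO, the SD of Fos was 0.59, that of Egr1 0.98, that of Nr4a1 0.51 and that of Dusp1 0.49. KO A was the lowest KO library for each of these genes. It had 337 normalized counts of Fos against 637 to 809 in the other KO libraries, and 550 of Dusp1 against 909 to 1187. No SD was taken without KO A. Of the 12630 genes that averaged 100 or more normalized counts, 99.5% had a smaller SD in the KO than Fos, 99.8% than Egr1, 99.3% than Nr4a1 and 99.2% than Dusp1. The shares were 97.1% for Junb, 95.7% for Fosb, 93.3% for Npas4, 82% for Arc, 81.5% for Atf3 and 79.8% for Ier2. Of these, Fosb, Npas4 and Arc themselves averaged below 100. In WT, the share of the 12630 genes with a smaller SD ran from 39.4% for Npas4 to 97.7% for Egr1. It was 66.2% for Fos, 73.1% for Dusp1 and 93.6% for Ier2. The counting error of Fos and Dusp1 at their lowest library was about 5.05% and 3.95%.

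**Figure D3:**
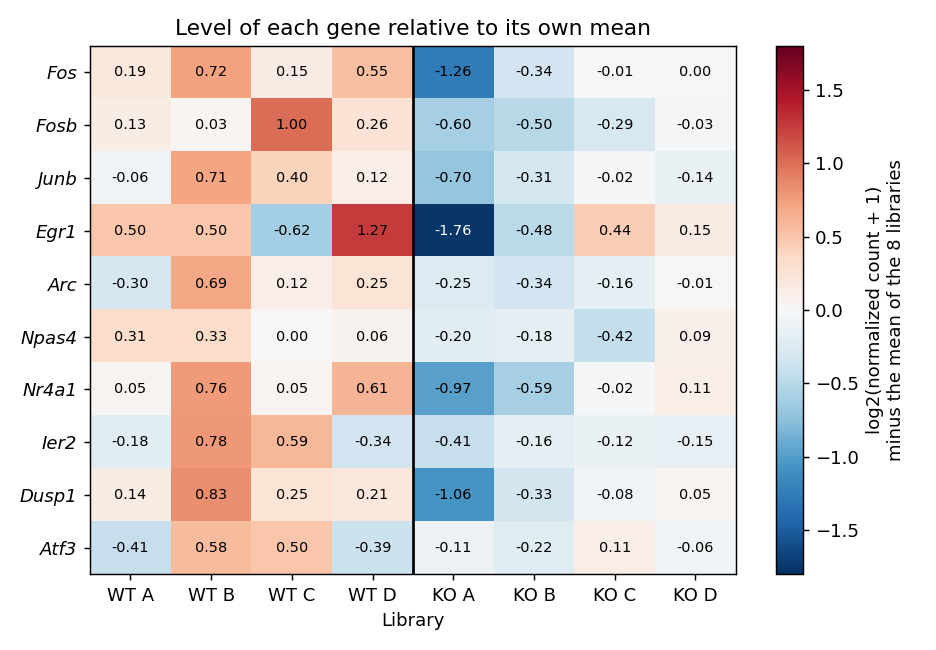
Centred log2 level (colour, log2 of the normalized count + 1 minus the mean of the 8 libraries) of each gene (rows) in each library (columns). WT B is red in nearly every row, KO A is blue for all 10 genes and darkest for Egr1 and Fos, and the WT libraries also hold blue cells, such as Egr1 in WT C, Arc in WT A, and Ier2 and Atf3 in WT A and WT D.

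Of all genes tested, those whose centred log2 profile over the 8 libraries was closest to that of Fos were Nr4a1 and Dusp1, with a root mean square difference of 0.153 and 0.154 on the log2 scale. Junb followed at rank 8 with 0.283, Arc at rank 151, Egr1 at rank 521 and Npas4 at rank 567. Fosb was at rank 748, Ier2 at rank 1015 and Atf3 at rank 7273 of the genes tested. The log2 levels were centred but not scaled. A gene with the pattern of Fos but larger or smaller swings therefore ranks further away. The 5 closest genes outside the 10 were Gm8010 (0.219), Gm42820 (0.237), Gm19531 (0.238), Thbs4 (0.244) and En2 (0.272). The 3 Gm genes had at most 19.4 normalized counts in a library. Thbs4, which encodes the matrix glycoprotein thrombospondin 4, had 93.8 to 122 normalized counts in WT and 50.1 to 87.6 in the KO. En2, which encodes the homeodomain factor engrailed 2, had 53.9 to 91.2 in WT and 34.1 to 56.4 in the KO.

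Genes that are induced together with the 10 genes, or act before or after them, were described as lists. None of the genes of these lists was called in limma. The 7 lists other than the 10 genes held 127 tested genes. At an unadjusted limma p under 0.05, 9.29% of all genes tested were higher in the KO, and every KO library was above every WT library in 6.16%.

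Of the other transcription factors of the AP-1, EGR, NR4A and KLF families and their relatives, 17 of 19 were tested. The level was lower in the KO in 16 and higher in 1, with a median log2 fold change of -0.29. At an unadjusted p under 0.05, 5 were lower and 0 higher, and in Egr4, Myc and Crem every KO library was below every WT library. Egr4, which encodes a zinc finger factor related to Egr1, had 47.8, 123, 80.7 and 70.2 normalized counts in WT A to WT D and 25.6, 27.9, 42.5 and 34.3 in KO A to KO D. Its genotypes did not overlap, and its log2 fold change was -1.22 (SE 0.29), with an adjusted p of 0.253 in limma. Maff, which encodes a small basic leucine zipper factor, had a log2 fold change of -1.07 (SE 0.54) and ranged from 13.6 to 77.0 normalized counts in WT, again with WT B and WT C as the highest. Jun, the AP-1 subunit that often pairs with Fos, had a log2 fold change of -0.03 (SE 0.09), with 1439 to 1811 normalized counts in WT and 1457 to 1619 in the KO.

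Of the other early response regulators and feedback genes, 30 of 31 were tested, with 19 lower and 11 higher in the KO and a median log2 fold change of -0.11. At an unadjusted p under 0.05, 4 were lower and 3 higher. Every KO library was above every WT library in Trib1 (0.32, SE 0.08, adjusted p 0.274 in limma) and Ier3 (0.21, SE 0.07), and below in Rgs2 (-0.56, SE 0.18). Ccn2, which encodes a matricellular protein, had 1225, 2203, 1809 and 1559 normalized counts in WT A to WT D. In KO A to KO D it had 244, 520, 688 and 1588. KO D lay within the WT range and the other 3 KO libraries far below it, and the log2 fold change was -1.44 (SE 0.47), with an adjusted p of 0.301 in limma. Gadd45g, a gene of the growth arrest and DNA damage response, had a log2 fold change of -0.57 (SE 0.22). It had 212, 380, 342 and 191 normalized counts in WT A to WT D and 159 to 200 in the KO. WT B and WT C were far above the other libraries.

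The delayed genes of neuronal activity, such as Bdnf, Homer1 and Nptx2, showed no shared direction. Of 16 tested of 17, 8 were lower and 8 higher, with a median log2 fold change of -0.008. At an unadjusted p under 0.05, 0 were lower and 2 higher. Bdnf, which encodes a neurotrophin, had a log2 fold change of -0.03 (SE 0.14). The largest differences were those of Osgin2 (0.48, SE 0.14) and Vgf (-0.48, SE 0.21), of which Vgf encodes a secreted neuropeptide precursor. Vgf had 1428, 2328, 2627 and 1335 normalized counts in WT A to WT D and 1232 to 1479 in the KO. Only WT B and WT C were thus above the KO range. In Osgin2 every KO library was above every WT library.

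The components that act before the 10 genes, such as calcium-dependent kinases, MAP kinases, CREB, the serum response factor and MEF2 factors, were all tested. Of these 26 genes, 12 were lower and 14 higher in the KO, with a median log2 fold change of 0.03. At an unadjusted p under 0.05, 2 were lower and 5 higher, and every KO library was above every WT library in Mapk3, Elk1, Mef2c and Crtc1. Mef2c, which encodes a MADS box factor, had a log2 fold change of 0.61 (SE 0.18, adjusted p 0.301 in limma).

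The remaining 3 lists held genes of cellular stress and injury. Of 12 genes of the integrated stress response, 8 were lower and 4 higher, with 2 lower and 0 higher at an unadjusted p under 0.05 and a median log2 fold change of -0.10. Atf5, which encodes a factor translated under this response, had a log2 fold change of -0.50 (SE 0.12, adjusted p 0.247 in limma), and Chac1, which encodes an enzyme that degrades glutathione, had -0.64 (SE 0.19), each without overlap of the genotypes. Atf4, the central factor of the response, had 0.06 (SE 0.06).

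Of 12 heat shock genes, 4 were lower and 8 higher, with 0 lower and 2 higher at an unadjusted p under 0.05 and a median log2 fold change of 0.07. The largest differences were those of the chaperone genes Hspb1 (-0.54, SE 0.28) and Dnaja1 (0.37, SE 0.16). Hspb1 had 82.5, 183, 182 and 90.3 normalized counts in WT A to WT D and 72.1 to 101 in the KO. Dnaja1 had 4608, 3130, 3023 and 4860 in WT A to WT D and 4615 to 5152 in the KO. In both genes WT B and WT C stood apart from all other libraries, and WT A and WT D were within or near the KO range. Of the 15 genes of the response to retinal injury, 14 were tested, with 9 lower and 5 higher, 1 lower and 0 higher at an unadjusted p under 0.05, and a median log2 fold change of -0.09. Gal, which encodes the neuropeptide galanin, had -0.67 (SE 0.37), and Lif, which encodes a cytokine of Mueller glia, had 0.61 (SE 0.64), both at low counts. In Fgf2, which encodes a growth factor, every KO library was above every WT library (0.18, SE 0.08).

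**Figure D4:**
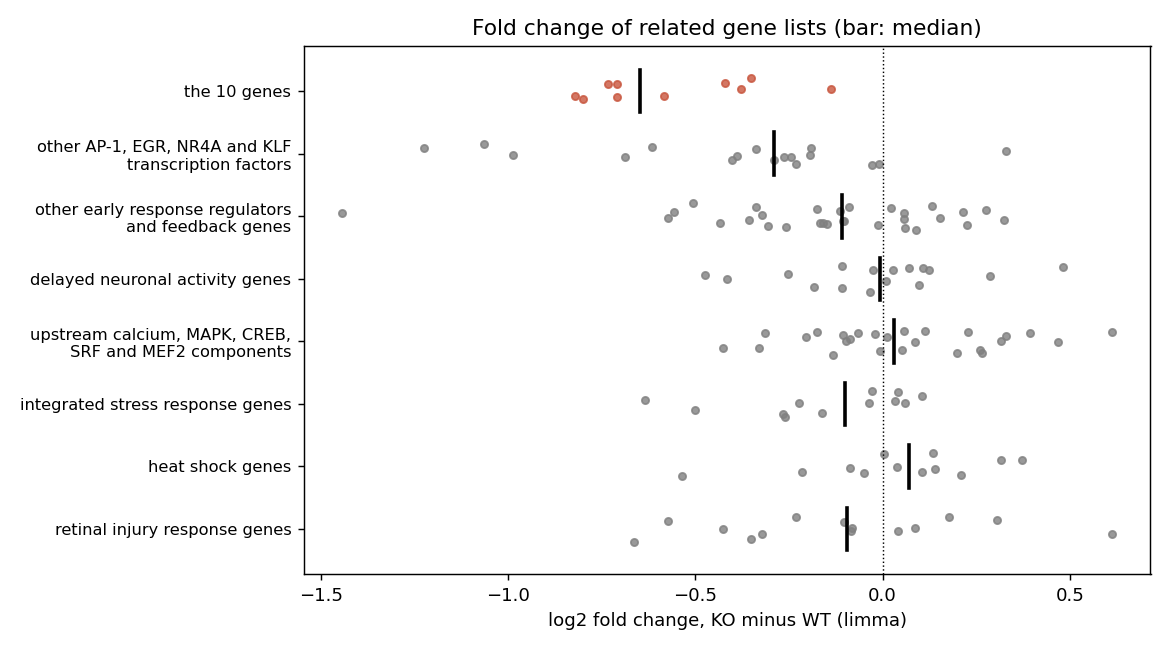
Log2 fold change of the KO against WT (horizontal axis, limma) for the 10 genes (red) and for the tested genes of 7 related lists (grey), with a bar at the median of each row and points spread vertically for legibility. The median is -0.65 for the 10 genes, -0.29 for the other transcription factors, and between -0.11 and 0.07 for the remaining lists.

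The labels and the depth were checked over all libraries. Bcan fell to 5.82% and Ncan to 0.0566% of the WT mean, while Tnr was at 42.9% and Tnc at 92.9%, so that the level of Tnc does not tell the genotypes apart. The estimated depth was 23700000 to 40500000 reads in WT and 38900000 to 52400000 reads in the KO, from a value of 1 read of 0.71 to 1.78 normalized counts. Of all genes tested, 77 were called in limma, 31 lower and 46 higher in the KO. The summed level of 6 rod markers was 1237000 to 1669000 normalized counts in WT and 1675000 to 1814000 in the KO, with WT B and WT C as the lowest. These sums did not overlap, but the highest WT and the lowest KO sum were close. Of the 6 markers, 4 were higher and 2 lower in the KO, and 0 were called in limma. In 2 of the 6 every KO library was above every WT library, as in 6.16% of all genes tested. For amacrine, bipolar, cone, microglia, endothelial, pigment epithelium, lens and blood markers, the sums overlapped between the genotypes.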

How the data were processed

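RNA was measured by sequencing of total RNA from 4 WT and 4 quadruple KO retina samples, grouped by the sample labels. As the study's methods and the submitters' processing notes state, the authors trimmed reads with Trim Galore 0.6.7, aligned them to GRCm39 with STAR 2.7.9a, estimated gene counts with Salmon 1.5.2 and compared the genotypes with DESeq2 1.32.0. The authors deposited 1 table of normalized counts, in which DESeq2 has scaled the estimated counts of each library, beside fold changes and p-values of their own. These fold changes and p-values of the authors were left out. The lowest mean in the deposited table was 8.5, so that genes of lower counts were not analysed here, and 0 columns of values had no sample.

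Normalized counts are not raw counts, and whole reads could not be recovered, since 47.7% to 66.9% of low values lay on steps of 1 read. The test was therefore limma 3.58.1 in R 4.3.3 on log2(normalized count + 1), with a trend on the mean and no covariate, for 17636 genes with a mean of at least 10. A fold change on this scale understates that of low genes. Benjamini-Hochberg adjustment ran over all 17636 genes, and an adjusted p under 0.05 was called. Two-sided exact permutation tests of the mean normalized count were added for the 10 genes. The main limma fit was tested on simulated counts, drawn independently for each gene and library. Summaries used scipy 1.17.1, pandas 2.3.3 and numpy 2.4.6 in Python 3.11.15, and matplotlib 3.10.9 drew the plots. Of the genes in the table, 17969 were matched by Ensembl ID to GENCODE on GRCm39, which gave positions, transcript lengths, GC content and starts.

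The members and the lists were chosen with earlier results of these data known. Genes named in the text were the 10 genes, the targeted genes, every called gene and the 2 largest fold changes of each list, and the 5 other genes most like Fos. A gene that this rule names among the upstream components is not reported here. Further genes of the lists (Myc, Crem, Mapk3, Elk1, Crtc1, Ier3, Trib1, Rgs2, Fgf2, Jun, Bdnf, Homer1, Nptx2 and Atf4) were named after their values were seen. The same holds for the single retinal ganglion cell markers. Alternatives were 19 in number, with the letter as a replicate block, other scalings, filters and pseudocounts, array weights, a GC correction and each library left out. The fit without both WT B and WT C was chosen after seeing the data.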

Additional observations from a re-analysis of the deposited data

Results flagged for a closer look

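In groups of 4 libraries, a library was singled out when its gap to the nearest of the others, divided by the range of the group, was above Dixon's 95% critical value. Of the 20 groups tested, made of the 10 genes in each genotype, 2 passed, and chance alone passes about 1 in 20. Dusp1 in WT B passed with a ratio of 0.873, from 2038 normalized counts against 1260 to 1359 in the other WT libraries. Ier2 in KO A passed with a ratio of 0.851, from 448 normalized counts against 532 to 546 in the other KO libraries.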

How the results depend on the processing

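Over the 19 alternatives, 0 of the 10 genes were called in any fit, and the smallest adjusted p in limma was 0.0861, for Junb without WT D. Fos, Fosb, Junb, Egr1, Arc, Npas4, Nr4a1 and Dusp1 were lower in the KO in every fit made. A minimum mean of 100 left out Fosb, Arc and Npas4. Array weights called 143 of all genes instead of 77, among them 1 gene of the lists, Atf5 (log2 fold change -0.41, adjusted p 0.0359 in limma), and gave Atf3 0.26, Arc -0.08, Ier2 -0.056 and Junb -0.32. Without both WT B and WT C, Atf3 had 0.33 and Ier2 0.052. In that fit every KO library was below every WT library in 4 of the 10 genes. For Atf3 the genotypes did not overlap either, with every KO library above WT A and WT D. With each library left out in turn, every KO library was below every WT library in 3 to 5 of the 10 genes. The count was 5 without WT A and 5 without KO D. Fewer libraries separate more easily, and the share of 3.58% of all genes was counted only with no library left out. These counts are therefore not a result about the 10 genes. With each library left out in turn, Atf3 ranged from -0.30 to 0.033, with 0.033 without WT B and 0.0076 without WT C. The causes were not tested.

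The labels do not state whether a letter A to D marks a shared animal, litter or day. The correlation of same-letter deviations was -0.00967, -0.109, 0.098 and 0.0502 for A to D. Each letter holds a single library of each genotype, so these values cannot decide whether the libraries are paired. A replicate block on the letter called 51 of all genes and 0 of the 10 genes. Depth limits Arc most, with about 31.1 reads in its lowest library.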
